A study of Mus musculus with 24 samples.

Results

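The comparison set the oligodendrocyte (OL) translatome of the injured mouse spinal cord 42 days post injury (dpi 42) against that of uninjured cord (naive). Its members were the 6 OL libraries whose count columns are named for these groups, 3 for dpi 42 and 3 for naive, of 24 libraries in the series. All mice were female OL-Ribotag mice (plp-cre;rpl22HA), in which a tamoxifen-inducible Cre switches on a hemagglutinin (HA) tag on the ribosomal protein RPL22, and naive mice carried the same alleles and had the same induction. The dpi 42 mice received a contusion at vertebral level T9 with an impactor set to 50 kdyn, at 10 to 12 weeks of age by the labels, and naive mice were not injured. Each library came from a pool of 2 mice. Ribosomes captured with an anti-HA antibody gave the OL library of a pool, and the lysate before capture gave its total RNA library. The capture has limits as a model of OLs: the Cre is also active in Schwann cells, cells that matured after tamoxifen may carry no tag, and RNA of other cells can come down with the beads. For 1 of the 3 dpi 42 OL libraries (replicate 1) the title and source labels name total RNA, whereas the description and the count column name the immunoprecipitate, which was followed here. Its summed level of compact myelin mRNAs, given in the next paragraphs, lay with the OL libraries and not with total RNA.

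Oligodendrocytes wrap axons in myelin, a membrane stack unusually rich in cholesterol and galactolipids. Because little cholesterol crosses the blood-brain barrier, OLs make most of it themselves from acetyl-CoA, through HMG-CoA, mevalonate, squalene and lanosterol. The transcription factor SREBP2, encoded by Srebf2, is kept in the endoplasmic reticulum by INSIG proteins when sterols are plentiful, and it activates the genes of this pathway when they are scarce. After contusion, OLs die in the acute phase, new ones are formed from precursors over the following weeks, and macrophages and reactive astrocytes persist in and around the lesion.

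Total counts were 30851292 to 32987841 in the 3 dpi 42 OL libraries and 31506966 to 31954139 in the 3 naive ones, so that 3 counts corresponded to 0.1049 to 0.1269 CPM, the counts scaled to a common library size. These values used edgeR's TMM factors and were not divided by transcript length. Compact myelin mRNAs summed to 126500 to 163800 CPM in dpi 42 OL libraries and 142000 to 188800 CPM in naive ones, against 25680 to 33230 CPM in the total RNA of both groups. Neuronal markers summed to 407 to 840 CPM in the 6 OL libraries, against 7001 to 13830 CPM in total RNA. The OL label thus held for each of the 6 libraries by its markers.

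Other cells' mRNAs were nevertheless present, and they divided the OL libraries across the groups. The sum of 12 astrocyte markers was 2650, 2451 and 14180 CPM in naive OL replicates 1 to 3 and 15970, 14100 and 3219 CPM in dpi 42 OL replicates 1 to 3. Naive OL 3 and dpi 42 OL 1 and 2 were therefore the astrocyte-rich libraries, above the 7987 to 10550 CPM of total RNA, and none of the 12 markers was at 0 in any OL library. A set of 10 markers of myelinating Schwann cells, the myelin-forming cells of peripheral nerve, summed to 682, 688 and 1269 CPM in naive OL libraries and to 2011, 2032 and 2363 CPM on dpi 42, so that naive OL 3 was the highest naive library. A set of 14 phagocyte markers summed to 208 to 271 CPM in naive OL libraries and to 786 to 1004 CPM on dpi 42, while total RNA of dpi 42 held 3253 to 5029 CPM. Lymphocyte markers summed to 0.0765 to 0.254 CPM in naive OL libraries and to 0.822 to 1.36 CPM on dpi 42. The part of these cells in the differences described here was not tested. Some list medians and gene values, though not all, are therefore also given in 2 strata. These are the astrocyte-poor libraries (dpi 42 OL 3 against naive OL 1 and 2) and the astrocyte-rich ones (dpi 42 OL 1 and 2 against naive OL 3). Each stratum was fitted anew, without the 3 OL libraries of the other stratum, and its lone library was assumed to vary like the other groups.

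**Figure D1:**
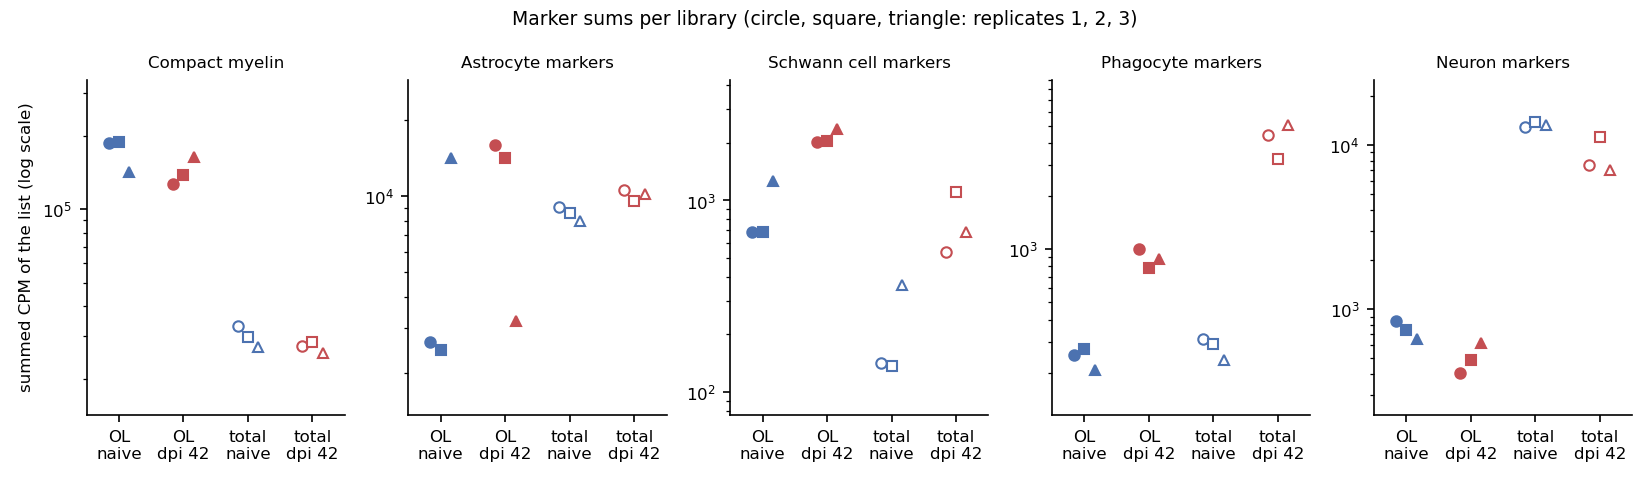
Summed CPM (log axis) of marker lists of OLs and of other cells in each OL and total RNA library of naive (blue) and dpi 42 (red) cord, 1 point a library, filled for OL and open for total RNA. Astrocyte markers were high in naive OL 3 (14180 CPM) and in dpi 42 OL 1 and 2 (15970 and 14100 CPM), and phagocyte markers were higher in all 3 dpi 42 OL libraries than in any naive one.

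Of 17167 genes tested, 1466 were upregulated and 700 downregulated in dpi 42 OL, that is 8.54% and 4.08% of genes tested, at an absolute Log2FC over 1 and an adjusted p (q) under 0.05. In 1105 of the 1466 all 3 dpi 42 OL libraries lay above all 3 naive ones, and in 629 of the 700 they lay below. Genes whose naive libraries each held 3 counts or fewer made up 223 of the upregulated, and genes with 3 counts or fewer in each dpi 42 library 134 of the downregulated. Total RNA showed 6.66% of genes upregulated and 0.798% downregulated; 748 of the genes upregulated in OL and 77 of those downregulated were called the same way there. On dpi 42, 653 of the 1466 upregulated genes were lower in OL than in total RNA by a Log2FC below -1 at q under 0.05, a state found in 22.5% of all genes tested. The median Log2FC over all genes tested was 0 in OL and -0.08 in total RNA, which the medians of gene lists given here can be read against. In bulk libraries such as these, fewer cells of a type and less RNA per cell cannot be told apart.

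The 12 upregulated genes with the smallest p among those with separated groups were Fxyd7, Lyz2, Serpina3n, S100a1, Tyrobp, Spp1, C1qa, Laptm5, C1qb, Mpeg1, H2-D1 and Ctss. Apart from Fxyd7, Serpina3n, S100a1 and Spp1, these encode proteins of macrophages and microglia, complement or antigen presentation. Of the corresponding 12 downregulated genes, 10 are reported here: Cyp51, Sqle, Lss, Eea1, Acly, Hmgcs1, Msmo1, Tcf12, Srebf2 and 9330182L06Rik, of which 7 act in sterol or acetyl-CoA supply. By size of the fold, among genes with at least 10 CPM in the higher group, Col13a1, Ccn5, Timp1, Lcn2, Lyz2 and Ptx3 led the upregulated, and Idi1, Pdpr, Sqle, Pcdhgb4 and Hmgcs1 were among the leading downregulated.

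**Figure D2:**
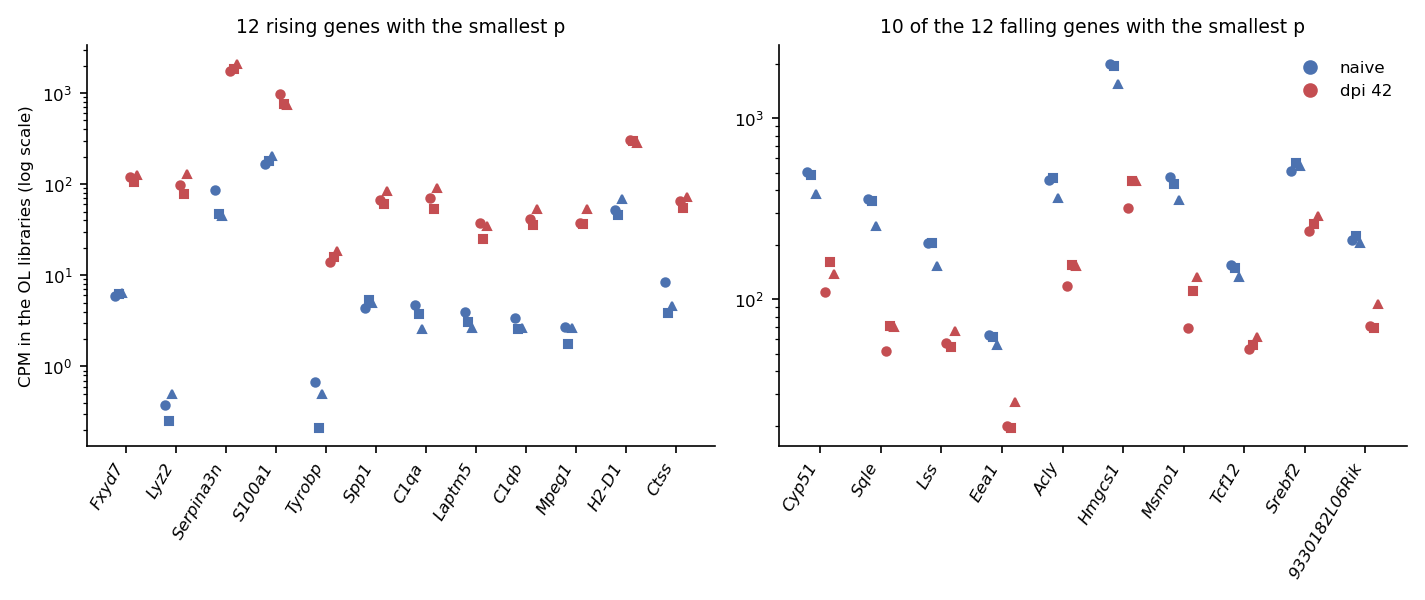
CPM (log axis) of the 12 upregulated and 10 of the 12 downregulated genes with the smallest p in the naive (blue) and dpi 42 (red) OL libraries; circle, square and triangle are replicates 1 to 3. In Hmgcs1, Sqle and the other downregulated genes all 3 dpi 42 points lie below the naive ones, and in Fxyd7, Serpina3n and the other upregulated genes they lie above.

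Sterol synthesis had the highest share of downregulated members of the lists examined. Of 20 enzymes from acetyl-CoA to cholesterol, 15 were downregulated in dpi 42 OL and none was upregulated, with a median Log2FC of -1.48, and in 17 of the 20 every dpi 42 library lay below every naive one (19.2% of all genes tested did). The median was -1.35 in the astrocyte-poor and -1.53 in the astrocyte-rich stratum, with 14 enzymes downregulated in each. Tm7sf2 (-0.82, q = 0.167) and Hsd17b7 (-0.66) were not downregulated in the astrocyte-poor libraries, nor Fdps (-0.86) in the astrocyte-rich ones.

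An early enzyme of the pathway was among those that fell most. Hmgcs1, the HMG-CoA synthase, held 2001, 1938 and 1540 CPM in naive OL and 317, 449 and 449.8 CPM on dpi 42, a Log2FC of -2.17 (SE 0.19, q = 5.9e-08). The groups were far apart, and dpi 42 OL 1 was the lowest library.

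Most later steps were downregulated too. Idi1, which isomerises the isoprene unit, held 38.5, 35.4 and 29.5 CPM in naive OL and 3.6, 8.62 and 7.59 CPM on dpi 42 (Log2FC -2.38, SE 0.30, q = 6.3e-06). Sqle, squalene epoxidase and the second control point of the pathway, held 356, 350 and 253 CPM against 51.7, 71.2 and 70.2 CPM (Log2FC -2.31). In both genes all dpi 42 libraries lay far below the lowest naive one, naive OL 3. Lss, which closes squalene epoxide into lanosterol, fell from 204, 203 and 152 CPM to 57.5, 54.5 and 66.6 CPM (Log2FC -1.65). Cyp51, the lanosterol demethylase, fell from 501, 487 and 379 CPM to 109.7, 160.3 and 137 CPM (Log2FC -1.75), and Msmo1, the methylsterol oxidase after it, from 472, 434 and 355 CPM to 69.6, 110.4 and 133 CPM (Log2FC -2.01). None of these 3 enzymes had overlapping groups. Fdft1 (-1.39), Fdps (-1.15), Nsdhl (-1.62), Sc5d (-1.43), Tm7sf2 (-1.54), Hsd17b7 (-1.19) and Dhcr7 (-1.25) were also downregulated. Of the 5 enzymes not called, Mvd (-0.975, q = 1.1e-05) and Acat2 (-0.60, q = 0.00538) passed the q threshold without reaching the fold, and Mvk (-0.27, q = 0.173), Pmvk (0.13, q = 0.487) and Ebp (-0.07, q = 0.767) did not pass it.

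The regulators moved with the enzymes in part. Srebf2 held 513, 565 and 544 CPM in naive OL and 236, 262 and 288 CPM on dpi 42 (Log2FC -1.04, SE 0.09, q = 7.4e-08), just past the fold threshold and short of it in the astrocyte-poor stratum (-0.92). Insig1, whose product holds SREBP2 back and which is itself a target of SREBP2, fell from 207, 199.8 and 276 CPM to 51.3, 68.4 and 75.9 CPM (Log2FC -1.80). Insig2, a related retention protein, stood at 25.4, 19.5 and 20.2 CPM in naive and 27.7, 40.2 and 26.4 CPM on dpi 42 (Log2FC 0.54, q = 0.00994), with every dpi 42 library above naive. The 2 INSIG genes thus had opposite signs. Scap, the escort protein of SREBP2, had a Log2FC of -0.67, and the proteases that release the active factor had -0.30 (Mbtps1, q = 0.0585) and -0.96 (Mbtps2, q = 7.6e-04). Over the 9 genes of this list 4 were downregulated and none upregulated, with a median of -1.04 (-0.96 with a gene absent on dpi 42 at its bound). Stard4, which moves cholesterol within the cell and stands in the same list, fell by 2.08 on the log2 scale.

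The fall was larger in OL than in total RNA, which also holds the RNA of OLs, for some members. In total RNA 8 of the 20 enzymes were downregulated and the median was -0.90. The change in OL enrichment, which is the Log2FC in OL minus that in total RNA, was negative at q under 0.05 for 6 of 20 enzymes (3.47% of all genes tested), among them Hmgcs1 (-0.83, q = 0.0486), Sqle (-0.99, q = 0.0189), Cyp51 (-0.68, q = 0.0245) and Dhcr7 (q = 0.0315). The median OL/total Log2FC of the enzymes was 1.46 in naive cord and 0.98 on dpi 42. All q values given here for a change in OL enrichment came from a fit without a term for the pool. OL and total RNA libraries came from the same pools, and the study paired them.

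The values of the enzymes differed by time after injury. The dpi 2 and dpi 10 OL libraries of the series were compared with the same naive libraries, so the 3 time points share controls and are given side by side. The median Log2FC of the 20 enzymes was 0.02 on dpi 2 with none downregulated (6.85% of all genes tested were), -1.06 on dpi 10 with 11 downregulated (1.26% of all genes tested at that time), and -1.48 on dpi 42. Tested directly, 9 of the 20 were lower on dpi 42 than on dpi 10 at q under 0.05, where 3.9% of all genes tested were. Sqle was among them (dpi 42 against dpi 10, -0.997, q = 0.00394).

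**Figure D3:**
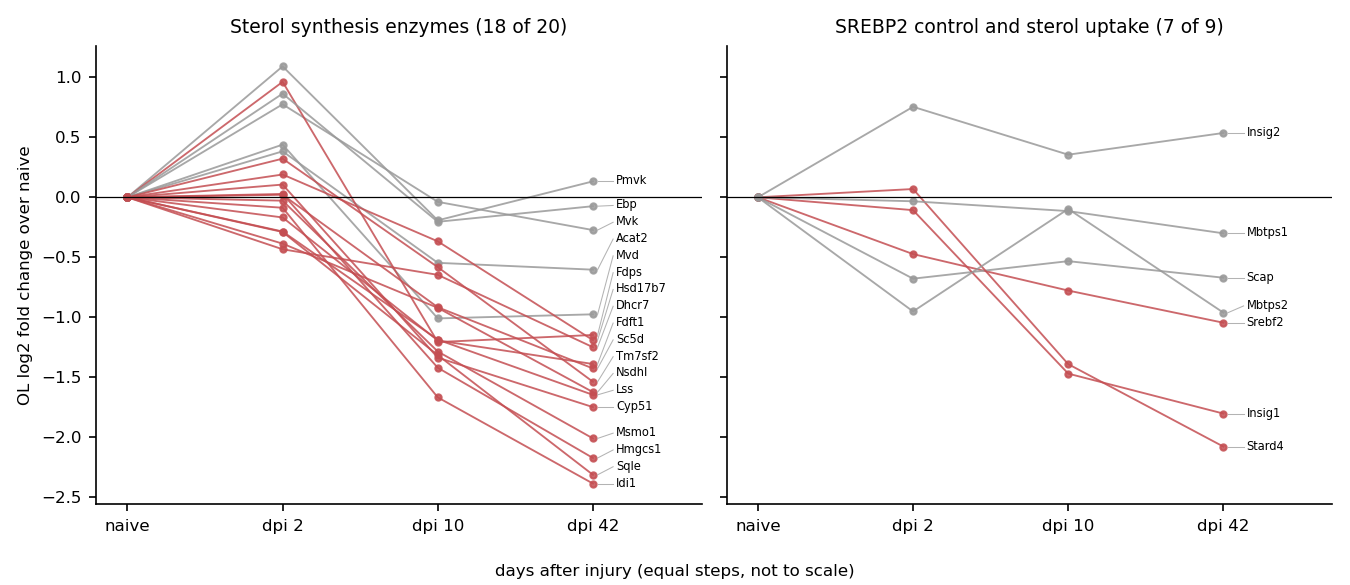
Log2FC in OL against naive on dpi 2, 10 and 42 for genes of sterol synthesis and uptake, in equal steps along the axis, 1 line a gene, with naive at 0 by definition; red lines are genes downregulated on dpi 42 and grey lines the others. Shown are 18 of 20 enzymes and 7 of 9 genes of the second list. The median of all 20 enzymes went from 0.02 to -1.06 to -1.48.

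SREBP2 is known to bind promoters together with the factor NF-Y, and 3 promoters of these genes are shown because they hold letters that 1 or both of these factors recognise in the 130 bases from 150 to 21 bases before the start of transcription. They are RefSeq promoters of the GRCm38.p6 build, on the plus strand, and capitals mark the matches: TCACNCCAC, a form of the sterol response element, and CCAAT, the NF-Y box, which reads ATTGG on the other strand.
Hmgcs1, chr13:119690201-119690330: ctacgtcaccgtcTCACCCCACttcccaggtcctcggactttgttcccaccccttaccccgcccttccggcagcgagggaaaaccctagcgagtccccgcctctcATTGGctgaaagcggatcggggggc
Nsdhl, chrX:72918371-72918500: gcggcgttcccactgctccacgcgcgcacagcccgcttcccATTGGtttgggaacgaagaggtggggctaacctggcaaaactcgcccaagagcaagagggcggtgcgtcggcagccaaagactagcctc
Lss, chr10:76531455-76531584: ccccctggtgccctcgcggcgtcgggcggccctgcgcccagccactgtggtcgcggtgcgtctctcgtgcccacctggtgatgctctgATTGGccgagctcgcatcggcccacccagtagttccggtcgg

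Of 29 genes of sterol synthesis and its control, 21 had a promoter in the RefSeq table, each window running from 250 bases before the start to 50 after it, and both strands were searched. CCAAT was present for 17 of the 21 (81%), against 41.1% of all genes with a promoter and 42.1% of those tested here. The 17 included Mvd, Mvk, Pmvk and Ebp, which were not downregulated, and Insig2, whose Log2FC was positive. Those without CCAAT were Acat2, Scap, Mbtps1 and Mbtps2, none of them downregulated. TCACNCCAC was present for Hmgcs1 alone, 137 to 129 bases before the start, against 1.44% of all genes. In the stretches printed the matches of the 2 motifs do not overlap. A match is a description of the letters and not a binding site shown by these data.

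Fatty acid synthesis genes were lower in part. Of 17 genes, 5 were downregulated and none upregulated, with a median Log2FC of -0.71 (-0.70 and -0.85 in the astrocyte-poor and astrocyte-rich strata). Acly, which supplies cytosolic acetyl-CoA to both sterol and fatty acid synthesis, held 456, 467 and 361 CPM in naive OL and 118, 155 and 153 CPM on dpi 42 (Log2FC -1.59, q = 4.4e-08). Its groups were far apart, and in total RNA its Log2FC was -0.66, so that its change in OL enrichment was -0.93 (q = 0.00349). Scd1, a desaturase that makes oleate, fell from 1751, 1607 and 1703 CPM to 721, 829 and 724 CPM (-1.16). Acss2, which makes acetyl-CoA from acetate, and the elongases Elovl6 and Elovl7 fell by 1.24, 1.12 and 1.04 on the log2 scale. In single strata Elovl7 (-0.85, astrocyte-rich) was short of the fold. Fasn, the synthase itself, had a Log2FC of -0.87 (q = 1.7e-05) and Scd2 of -0.77, both past q but not the fold, and Me1, which makes NADPH, had 0.49 (q = 0.00491).

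Among 15 sphingolipid genes, Ugt8a and Sgms1 were downregulated and none was upregulated, with a median of -0.395 (-0.334 with a gene absent from 1 group at its bound). Ugt8a, which makes the galactolipid galactocerebroside, held 2039, 1880 and 1183 CPM in naive and 437, 603 and 750.2 CPM on dpi 42 (-1.51). The groups were separate, with the astrocyte-rich naive OL 3 the lowest naive library. Sgms1, a sphingomyelin synthase, fell by 1.14 on the log2 scale, and in the astrocyte-poor stratum it had -0.89. Cers2, the ceramide synthase of very long chains, had -0.97 in OL and 0.01 in total RNA, and its OL enrichment changed by -0.98 (q = 0.00122).

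Genes of lipid export and storage were mixed. Of 17, 6 were upregulated and 1, Abca2, was downregulated, with a median of 0.29 that was 0.17 and 0.07 in the 2 strata. Apoe, the main lipoprotein of the nervous system, stood at 902, 1120 and 4841 CPM in naive OL and at 13790, 11080 and 5981 CPM on dpi 42 (Log2FC 2.17), higher in total RNA still (3.17). Its highest values lay in the astrocyte-rich libraries of each group, although the groups did not overlap. Apod, a lipocalin that OLs also make, held 7604, 7945 and 7818 CPM in naive and 19090, 17380 and 19410 CPM on dpi 42 (1.26, q = 4e-06). Its rise did not follow the astrocyte markers, and total RNA rose by a Log2FC of 1.19. Abca2, a lipid transporter of OL lysosomes, fell from 3643, 3711 and 2750 CPM to 1439, 1552 and 1966 CPM (-1.03), and Npc1, which exports cholesterol from lysosomes, had -0.89.

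**Figure D4:**
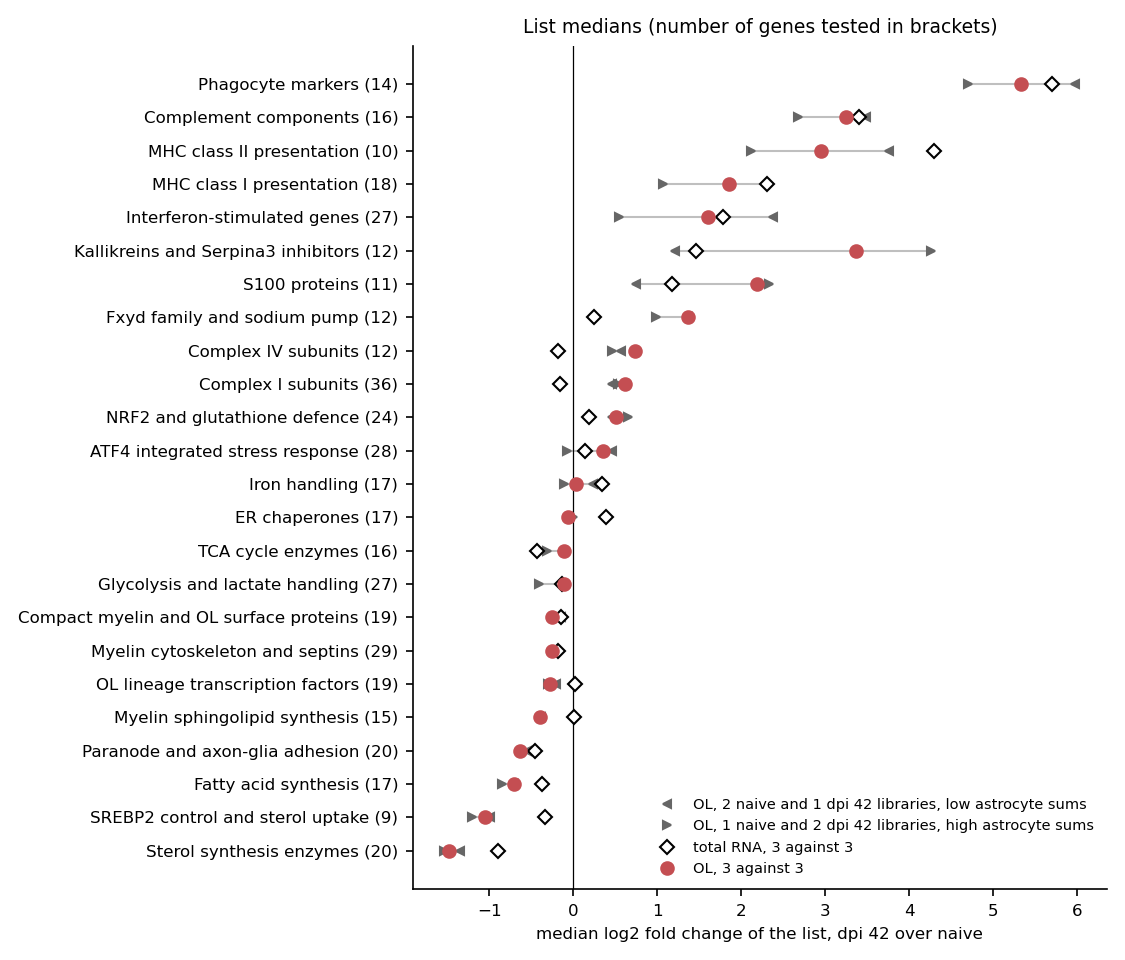
Median Log2FC of the main gene lists in dpi 42 OL against naive OL, over all libraries and in the astrocyte-poor and astrocyte-rich strata, with the median in total RNA, 1 symbol each. Sterol synthesis lies at -1.48, -1.35 and -1.53 in the 3 OL estimates, and the phagocyte list lies at 5.33.

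Few structural myelin mRNAs were called. Of 19 compact myelin genes, 1 was upregulated and 1 downregulated, 7 were lower and 2 higher at q under 0.05 (16.9% and 16.2% of all genes tested), and the median was -0.25. Mbp, the basic protein that joins the cytoplasmic faces, had a Log2FC of 0.03 (q = 0.945). Mog (-0.46), Mal (-0.61) and Mag (-0.25, q = 0.11) had negative values short of the fold. Gpr37, a receptor of OLs, was the member downregulated: 1746, 1870 and 1480 CPM in naive and 613, 672 and 924 CPM on dpi 42 (-1.21, q = 2e-06). Cd9, a tetraspanin found in myelin and in many other cells, was upregulated from 223, 220.2 and 205 CPM to 597, 598 and 599 CPM (1.47), and by more in total RNA (2.36). Of 29 cytoskeletal genes, Tubb6 was upregulated and Dst downregulated, and 13 were lower and 2 higher at q under 0.05, with a median of -0.26.

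Genes that attach myelin to the axon, and those that couple OLs to other cells, included several falls. Of 20 paranodal and adhesion genes, 3 were downregulated and 1 upregulated, and 11 were lower at q under 0.05, with a median of -0.63. With the offset for length and GC content described with the respiratory chain, none was downregulated, 7 were lower at q under 0.05 and the median was -0.30. Tjp1, a scaffold of tight and gap junctions, held 189, 182 and 189 CPM in naive and 57.4, 79.3 and 91.4 CPM on dpi 42 (-1.30), and its OL enrichment changed by -1.13. Cadm2, a cell adhesion molecule, fell by 1.43 on the log2 scale and Cntnap2, a juxtaparanodal protein, by 1.06. Gldn, a node protein secreted by Schwann cells, was the gene upregulated, at 0, 0.0846 and 2.10 CPM in naive and 3.78, 4.74 and 4.34 CPM on dpi 42, with naive OL 3, the highest naive library in Schwann cell markers, the only one of its group above 0.0846 CPM. Against naive OL 3 alone it did not pass (0.94, q = 0.33), and Cntnap2 did not pass in either stratum (-0.77, q = 0.119, and -0.95, q = 0.0595). Gjc3, a connexin of myelinating glia, fell from 563, 581 and 507 CPM to 214, 250.5 and 291 CPM (-1.13).

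Genes of myelin inhibitors of axon growth and of their receptors were mixed. Of 13, Omg and Sema6a were downregulated and Rtn4rl1, a homologue of the Nogo receptor, was upregulated (1.31), and the median was -0.07, with the sign turned when library sizes were used without TMM (0.05) and with an offset for length and GC content (0.01). Omg, the OL-myelin glycoprotein, held 459, 505 and 423 CPM in naive and 183, 219 and 254 CPM on dpi 42 (-1.08). Sema6a, a transmembrane semaphorin, fell from 275, 289 and 250.8 CPM to 77.6, 83.6 and 114 CPM (-1.57), and its OL enrichment changed by -1.18 (q = 0.00254). Neither had overlapping groups. Rtn4rl1 did not pass in the astrocyte-rich stratum (1.32, q = 0.0861).

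Among 19 transcription factors of the OL lineage 6 were lower and 2 higher at q under 0.05, 1 was upregulated, and the median was -0.28. Their median OL/total Log2FC was 2.07 in naive and 1.16 on dpi 42. Olig2, which specifies the lineage, had -0.80, Zeb2, needed for myelination, -0.95, and Nkx6-2, which regulates myelin genes, 0.60. Tcf12, a basic helix-loop-helix partner of OL factors and 1 of the 12 most certain falls, held 154, 148 and 133 CPM in naive and 53.2, 56 and 61.8 CPM on dpi 42 (-1.34). In total RNA Tcf12 had -0.21, so that its OL enrichment changed by -1.13 (q = 3.1e-04). Of the genes that mark mature OLs, Klk6 and Apod were upregulated and Grm3 downregulated out of 11.

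The other leading falls had no list of their own. Eea1, an early endosome tether, held 63.3, 61.5 and 55.6 CPM in naive and 19.9, 19.4 and 26.9 CPM on dpi 42 (-1.45), with an OL enrichment change of -0.92. Pdpr, which regulates pyruvate dehydrogenase, fell by 2.37 on the log2 scale, and 9330182L06Rik by 1.46. Pcdhgb4, a clustered protocadherin, held 11.5, 12.6 and 9.75 CPM in naive and 1.57, 0.635 and 4.97 CPM on dpi 42 (-2.24, q = 0.00303). Genes of its cluster share exons, so its counts are uncertain, and in the astrocyte-poor stratum alone it did not pass (-1.29, q = 0.159).

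Ion handling included the most certain rise. Fxyd7, a small regulator of the sodium-potassium pump known from neurons, held 5.88, 6.18 and 6.43 CPM in naive OL and 119.8, 106 and 127 CPM on dpi 42, a Log2FC of 4.26 (SE 0.15, q = 1.2e-13). The dpi 42 libraries lay close together, and the astrocyte-poor one was the highest. In total RNA its Log2FC was 0.13, so that OL enrichment changed by 4.12. Of 12 genes of the pump and its FXYD regulators, 6 were upregulated and none downregulated, with a median of 1.37 in all libraries and in the astrocyte-poor stratum and 0.99 in the astrocyte-rich one. Fxyd1, whose product is found in astrocyte endfeet, stood at 15.7, 12.3 and 85.8 CPM in naive and 598, 478 and 175 CPM on dpi 42 (3.45), high where astrocyte markers were high. Fxyd6 followed the same order, with 6.68, 4.99 and 25.6 CPM against 85.4, 71.2 and 36 CPM (2.36).

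Channels and glutamate receptors moved in both directions. Of 15 potassium channel genes, Kcnk2 (1.59) and Kcnk6 (2.41) were upregulated and Kcna1, a channel best known from axons beside the nodes, was downregulated from 84.2, 82 and 75.7 CPM to 19.5, 16.3 and 23 CPM (-2.04, q = 3.2e-07), and the median of -0.38 was -0.02 with the offset for length and GC content. Total RNA of Kcna1 fell too (-1.37). Kcnk2 did not pass in the astrocyte-rich stratum (0.74, q = 0.0932). Kcnj10, the channel by which glia clear potassium, had -0.70. Of 24 glutamate receptor and Cacng subunit genes, 5 were downregulated and 1 upregulated, with a median of -0.50 (-0.28 with the offset, where 3 were downregulated): Grm3 (-1.77), Grm7 (-1.48), Gria4 (-1.24), Grin2a (-1.24) and Gria2 (-1.13) fell. Of these, Grm7 did not pass in the astrocyte-rich stratum (-0.49, q = 0.281), nor Grin2a and Gria2 in either. Grm3, a metabotropic receptor of mature OLs and astrocytes, held 222, 229 and 176 CPM in naive and 42.9, 61 and 80 CPM on dpi 42. Cacng5, an auxiliary subunit of AMPA receptors, was the gene upregulated, from 1.64, 2.67 and 0.80 CPM to 6.61, 5.53 and 7.24 CPM (1.93), while its total RNA had -0.78 and its OL enrichment changed by 2.71 (q = 5.0e-04).

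Calcium-binding S100 proteins and secreted proteases with their inhibitors rose in several members. Of 11 S100 genes, 6 were upregulated (S100a1, S100a4, S100a6, S100a10, S100a11 and S100a13) and S100a9 downregulated, from at most 0.252 CPM to no counts, with a median of 2.19 that was 0.75 in the astrocyte-poor and 2.32 in the astrocyte-rich stratum. S100a1 held 168, 179.9 and 205 CPM in naive and 978, 767 and 739.9 CPM on dpi 42 (2.17), far apart in every library. S100a6, made by astrocytes and others, held 30.4, 31 and 43.4 CPM against 529, 425 and 174 CPM (3.43), with dpi 42 OL 3 the lowest of its group. S100a13 (1.10) fell short of the fold in the astrocyte-poor stratum (0.75). S100b, the member that OLs and astrocytes make in quantity, had 0.70 (q = 2.1e-05).

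Of 12 kallikrein and Serpina3 genes, 6 were upregulated and none downregulated. The median was 3.36, or 2.33 with genes absent from naive set at the smallest fold that 3 counts allow, and it was 1.21 in the astrocyte-poor stratum. Serpina3n, a secreted inhibitor of serine proteases, held 86.4, 47.2 and 44.9 CPM in naive and 1752, 1817 and 2099 CPM on dpi 42 (4.99), highest in the astrocyte-poor library. Total RNA rose by 3.27, and OL enrichment by 1.72. Klk6, a protease of mature OLs, held 1624, 1608 and 734 CPM in naive and 3665, 3255 and 4557 CPM on dpi 42 (1.53, q = 7.2e-05). Klk8, a related protease, went from 0.798, 0.592 and 0 CPM to 40.6, 33.3 and 46.9 CPM (6.46), against 1.67 in total RNA, and its OL enrichment changed by 4.79 (q = 9.3e-05).

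Many nuclear-encoded respiratory chain subunits were higher in OL, most of them by less than the fold threshold. Complex I, which takes electrons from NADH, had 26 of 36 subunits higher and 1 lower at q under 0.05, with a median Log2FC of 0.61. Complex IV, which passes electrons to oxygen, had 12 of 12 higher (0.73), complexes II and III 8 of 14 (0.41), and ATP synthase 7 of 16 higher and 1 lower (0.40). Ndufs5 (1.07), Ndufa1 (1.01), Cox7c and Atp5e (1.14) were the members upregulated, and Ndufs5 (0.83) and Ndufa1 (0.62) were short of the fold in the astrocyte-poor stratum, and Cox7c (0.96 and 0.97) and Atp5e (0.88 and 0.94) in both strata. The medians in total RNA were -0.15, -0.18, -0.28 and -0.29 in that order. The change in OL enrichment was positive at q under 0.05 for 27 of 36 complex I and 12 of 12 complex IV subunits (4.37% of all genes tested). Cox7c held 20, 21.5 and 25.3 CPM in naive and 53.2, 51 and 40.7 CPM on dpi 42 (1.12), and Cox4i1, a subunit needed for assembly, 342, 358 and 357 CPM against 659, 552 and 486 CPM (0.68). Groups were separate in both.

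These values turned with a correction for gene length and GC content. Upregulated genes had a median transcript length of 2645 bases and 52.7% GC, downregulated genes 4869 bases and 46.2%, and all genes with a length 3220 bases and 49.9%. With an offset that removes the dependence of counts on both properties in each library, the medians became -0.21 for complex I (4 subunits higher and 13 lower), -0.23 for complexes II and III, -0.01 for complex IV and -0.22 for ATP synthase. Cox4i1 turned from 0.68 to -0.36, and Cox7c kept its sign (0.53). Among named genes outside the chain, Tcf12 (-0.88), Eea1 (-0.85), Srebf2 (-0.97), Gpr37 (-0.94), Gjc3 (-0.86), Tjp1 (-0.84), Cadm2 (-0.56), Cntnap2 (-0.47), Scd1 (-0.86), Elovl6 (-0.67), Sgms1 (-0.87), Abca2 (-0.78), Tfrc (-0.84), Cd9 (0.97), Klk6 (0.90), Ftl1 (0.73) and S100a13 (0.05) came under the fold with the offset, with signs as before. Sterol synthesis did not turn: its median stayed at -1.48 with 15 enzymes downregulated under the same offset. Glycolysis (27 genes) and the citric acid cycle (16 genes) had medians of -0.11 each, turning to 0.03 and 0.02 with library sizes in place of TMM, and held 1 downregulated gene, Slc16a3, a lactate exporter that had -1.41 in OL and 2.42 in total RNA and did not pass in the astrocyte-poor stratum (-1.03, q = 0.178).

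**Figure D5:**
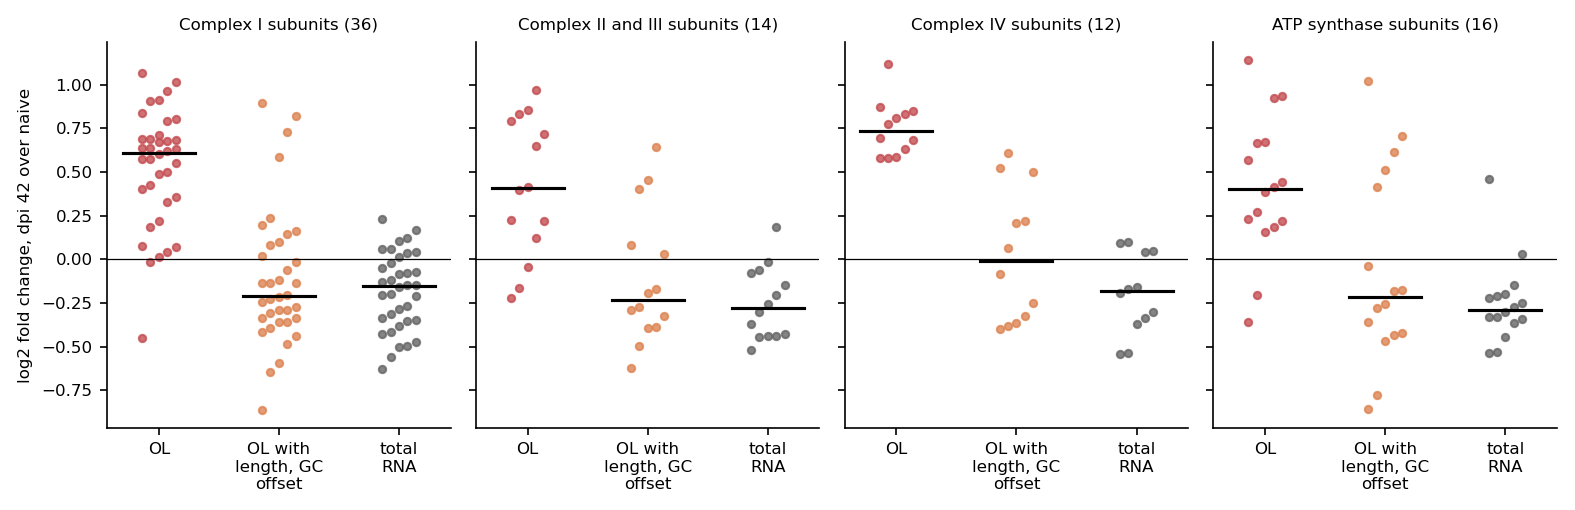
Log2FC of nuclear-encoded respiratory chain subunits in dpi 42 OL against naive, with and without an offset for gene length and GC content, and in total RNA, 1 point a gene and a bar at each median. The median of complex IV is 0.73 without the offset and -0.01 with it, and -0.18 in total RNA.

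Some antioxidant genes were upregulated. Of 24 NRF2 targets and antioxidant enzymes, 7 were upregulated, none was downregulated, and 12 were higher and 1 lower at q under 0.05, with a median of 0.51 (0.46 and 0.66 in the strata, 0.49 with the offset). Gpx4, which repairs lipid peroxides, held 196, 203 and 198 CPM in naive and 564, 499 and 457 CPM on dpi 42 (1.34, q = 2.8e-08), while total RNA had 0.15. Gstp1, a glutathione transferase, held 239.6, 272 and 247 CPM against 684, 543 and 555 CPM (1.23). The groups of both were separate, and with the offset their Log2FC became 0.43 and 0.25, under the fold. Gpx1, a glutathione peroxidase of the cytosol, went from 16.1, 15 and 23.9 CPM to 237, 183 and 57.7 CPM (3.12), and Hmox1, heme oxygenase, rose by 1.99. Srxn1 (0.97) and Sod1 (0.86) were higher short of the fold, with enrichment changes of 1.15 and 0.98.

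Metal handling was split. The 3 metallothioneins were all upregulated, but none had separate groups: Mt1 stood at 69.9, 79.5 and 479 CPM in naive and 2066, 1807 and 342 CPM on dpi 42, with its order following the astrocyte markers. Of 17 iron genes, 7 were upregulated and 1 downregulated, and the median of 0.03 became -0.10 with TMM set to a total RNA library, -0.14 with the offset and -0.11 in the astrocyte-rich stratum. Ftl1, ferritin light chain, held 150.1, 137 and 117 CPM in naive and 399, 368 and 490.5 CPM on dpi 42 (1.64), with more in total RNA (2.67). Tfrc, the transferrin receptor, fell from 229, 200.4 and 231 CPM to 86.8, 81 and 95.9 CPM (-1.32). Steap3, an endosomal ferrireductase, went from 1.22, 1.06 and 8.57 CPM to 24.5, 22.9 and 20.7 CPM (2.63), and Lcn2, an iron-siderophore carrier, from 0, 0.127 and 0.306 CPM to 74.8, 69.7 and 20.1 CPM, lowest in the astrocyte-poor library.

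Stress and death genes were moderate. Of 28 ATF4 targets, 8 were upregulated and none downregulated, with a median of 0.36 that was -0.08 in the astrocyte-rich stratum, and the dpi 2 median was 1.11. Among them Cebpb (5.33) had an OL enrichment change of 2.89 (q = 0.016), Atf3 and Nupr1 rose by 4.23 and 4.24, and Ddit3, which encodes CHOP, by 1.14 (0.52 with the offset). Gdf15, a stress cytokine, had no counts in naive and was at least 12.7-fold higher. No ER chaperone of 17 was called. Of 16 BCL2 family genes Bcl2 (1.11), Bik and Bbc3 (1.45) were upregulated, Bcl2 not in the astrocyte-rich stratum (0.52) and Bbc3 not in the astrocyte-poor one (0.99, q = 0.281), and of 17 p53 targets 5 were.

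Many antigen presentation and complement genes were upregulated in OL, and their medians in total RNA were positive too. Of 18 MHC class I genes, 14 were upregulated and none downregulated, with a median of 1.85 in OL and 2.31 in total RNA. In the astrocyte-poor stratum the median was 2.28, in the astrocyte-rich one 1.06 with 6 upregulated and 1 downregulated. H2-D1, a classical class I heavy chain, held 51.6, 46.4 and 68.3 CPM in naive and 305, 296 and 284 CPM on dpi 42 (2.41), and B2m, the shared light chain, 47.6, 43.3 and 100.2 CPM against 304, 330.5 and 263 CPM (2.23). Class I genes are close copies of each other, so reads may be divided between them. MHC class II had 7 of 10 upregulated (median 2.95, total RNA 4.29), interferon-stimulated genes 13 of 27 (1.60, with 2.38 in the astrocyte-poor and 0.54 in the astrocyte-rich stratum), and complement 11 of 16 (3.25, total RNA 3.41). C4b, complement component 4, held 307, 165 and 194 CPM in naive and 2015, 1818 and 2055 CPM on dpi 42 (3.15). C3 was high with the astrocyte markers, at 35.3, 32.2 and 151 CPM in naive and 1028, 891 and 184 CPM on dpi 42 (3.27).

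Phagocyte mRNAs rose in OL libraries while remaining far below total RNA. Of 14 phagocyte markers, 13 were upregulated, with a median of 5.33 (4.79 with genes absent from naive at their lower bound) in OL and 5.70 in total RNA, and Cst7, Mmp12 and Ms4a7 had no counts in naive OL. Lyz2, lysozyme of macrophages, went from 0.378, 0.254 and 0.497 CPM to 97.9, 77.8 and 129 CPM in OL (8.05) and from a mean of 8.57 to 1364 CPM in total RNA. Cd68, a lysosomal marker, held 0.378, 0.0846 and 0.612 CPM in naive OL and 15, 10.9 and 23.2 CPM on dpi 42. The median OL/total Log2FC of the list was -3.30 in naive and -3.68 on dpi 42. C1qa, a chain of the first complement component made by microglia, held 4.71, 3.76 and 2.601 CPM in naive OL and 70.3, 53.3 and 89.9 CPM on dpi 42 (4.27), with 4.04 in total RNA and an enrichment change of 0.23 (q = 0.775). C1qb (3.93), Tyrobp (5.11), Laptm5 (3.31), Mpeg1 (4.16) and Ctss (3.50) are products of the same cells. Spp1, osteopontin, differed from them in its change of OL enrichment, which was 1.47 (q = 0.00217). It held 4.33, 5.42 and 4.97 CPM in naive and 66.8, 60.7 and 84.5 CPM on dpi 42 (3.85), against 2.38 in total RNA. Total RNA already held a mean of 142 CPM of Spp1 in naive. Spp1 stayed depleted in OL, with an OL/total Log2FC of -4.86 in naive and -3.39 on dpi 42, where C1qa had -3.50. Gpnmb, a marker of lipid-laden macrophages, changed the other way (5.19 in OL, 8.65 in total RNA).

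Secreted and matrix genes included the largest rises by fold. Col13a1, a transmembrane collagen, had no counts in the 3 naive OL libraries and 11.9, 10.49 and 9.90 CPM on dpi 42, at least 87.8-fold higher. Its level was alike in the astrocyte-rich and astrocyte-poor libraries, and total RNA had a mean of 0.626 CPM in naive and 4.95 CPM on dpi 42. Ccn5, a matricellular protein, went from 0.042, 0 and 0.0383 CPM to 127.7, 80.2 and 12.6 CPM, Timp1, an inhibitor of metalloproteinases, from 0.042, 0 and 0.115 CPM to 49.2, 52.9 and 9.82 CPM, and Ptx3, a pentraxin, from 0.042, 0 and 0.0765 CPM to 18.1, 12 and 1.96 CPM. All 3 were lowest on dpi 42 in the astrocyte-poor library, by several fold. Of 32 growth factors and cytokines, 11 were upregulated and 1, Vegfa (-1.40, groups overlapping), downregulated, with a median of 0.75 (0.48 and 0.10 in the strata). Gas6, a ligand of TAM receptors, held 53.8, 47.7 and 74.8 CPM in naive and 224, 175 and 135 CPM on dpi 42 (1.60), with 0.38 in total RNA and an enrichment change of 1.22 (q = 0.00647). Il34, a ligand of the receptor that keeps microglia alive, held 0.967, 0.846 and 1.11 CPM against 6.47, 6.91 and 6.14 CPM (2.73, enrichment change 1.88, q = 0.0499), and Igf1, insulin-like growth factor, 0.168, 0.296 and 0 CPM against 9.37, 7.62 and 9.04 CPM (5.81).

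Lists of other cells and states gave the following counts. Of 10 Schwann cell markers 4 were upregulated, every dpi 42 library lay above every naive one in all 10, and the median of 2.61 was 6.76 in the astrocyte-poor stratum and 0.94 in the astrocyte-rich one, where naive OL 3 is the control. Repair Schwann cell genes were upregulated in 3 of 10 (Egfl8, Shh and Ucn2), and astrocyte markers in 2 of 12 with a median of 0.00. All 10 fibroblast markers were upregulated (3.64, and 1.96 in the astrocyte-rich stratum). Of 15 neuronal markers 6 were downregulated, with a median of -0.81 in OL and -0.63 in total RNA. Homeostatic microglia genes were upregulated in 7 of 13, endothelial genes in 5 of 11 with 1 downregulated, precursor genes in 1 of 10 (C1ql1) and newly formed OL genes in 1 of 9 (Rras2), and neither of these 2 genes passed in the astrocyte-poor stratum. Of 23 cell cycle genes 12 were upregulated, with a median of 1.45 (1.23 with lower bounds) that was 0 in the astrocyte-poor stratum, where 5 were upregulated. No PRC2 or CoREST complex gene of 16 and no lymphocyte marker of 10 was called, and 3 integrins of 26 were upregulated and 2 downregulated.

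A filter used by the study keeps the called genes that either change their OL enrichment in the same direction by a Log2FC over 1 (q under 0.05) or are OL-enriched by as much in both naive and dpi 42 cord. It left 199 upregulated and 124 downregulated genes, which is 1.16% and 0.722% of genes tested. Over all genes tested, OL enrichment rose by that size in 1.56% and fell in 1.42%. Of the upregulated, 175 passed by the change in enrichment and 27 by constant enrichment, 3 of them by both. Of the downregulated, 68 and 60 passed, with 4 by both. Fxyd7, Klk8, Gas6, Spp1 and C4b were among the upregulated that passed, and Sema6a, Tjp1 and Tcf12 among the downregulated. The counts rested on single libraries: without naive OL 3, the astrocyte-rich naive library, they were 454 and 293, without dpi 42 OL 1 96 genes upregulated passed, and without dpi 42 OL 3 382 downregulated passed.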

How the data were processed

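RNA-seq of anti-HA immunoprecipitates (OL) and of input lysates (total RNA) was analysed, 24 libraries in 8 groups of 3 pools. The raw counts per gene were deposited by the authors, who checked reads with FastQC 0.10.1, aligned them to mm10 with STAR and counted with HTSeq 0.10.0; the strand setting is not given in the sources used here, and no deposited column was left out (0). Counts were fitted in R 4.3.3 with edgeR 4.0.16 (TMM, quasi-likelihood test) over all 24 libraries and 8 group means, for the 17167 genes of 21965 with a summed count of at least 10, and p-values were adjusted by Benjamini-Hochberg over all genes tested. Genes were called at an absolute Log2FC over 1 and q under 0.05. The members and gene lists were chosen with earlier results of these data known. Named genes were the 12 with the smallest p in each direction among called genes with separated groups, the 6 with the largest fold in each direction among those with at least 10 CPM in the higher group, and list members with the smallest p or a defining role. Bounds for genes without counts used 3 counts per library. Groups followed the labels, and the description and count column where 2 dpi 42 libraries had conflicting labels. No pair of OL libraries of 1 group agreed within sampling noise. The script was tested on simulated counts with 200 changed genes. Alternatives were other size factors, DESeq2 1.42.0, other filters, fits of fewer libraries, replicate blocks, an offset for length and GC content and leaving out each library; the astrocyte strata were chosen after seeing the data. Some genes of these lists are counted in them but are not reported here by name.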

Additional observations from a re-analysis of the deposited data

Results flagged for a closer look

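The change from naive to dpi 42 differed between OL and total RNA, by a test of the difference itself and by a Log2FC over 1 at q under 0.05, in 267 genes that moved up more in OL (1.56% of genes tested) and in 243 that moved down more in OL (1.42%). Fxyd7, Klk8 and Spp1 were among the former, and Sema6a and Tcf12 among the latter. The OL translatome of dpi 42 differed directly from that of dpi 10 by the same limits, with 83 genes higher on dpi 42 (0.483% of genes tested) and 209 lower (1.22%). The respective share of captured RNA from other cells in these differences was not tested.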

How the results depend on the processing

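The 1466 upregulated and 700 downregulated genes became 744 and 373 with only the 6 OL libraries fitted and 953 and 406 with the 12 OL libraries, 1234 and 397 with the offset for length and GC content, 807 and 797 in the astrocyte-rich stratum, and 2354 and 2234 at a fold limit of 0.5. Leaving out 1 library gave 1021 to 1815 and 590 to 1201, with 1201 downregulated without dpi 42 OL 3. The 199 and 124 genes of the enrichment filter became 216 and 80 with library sizes alone, 125 and 279 with TMM set to a total RNA library, 143 and 81 with the offset, and 107 and 83 with a replicate block by tissue pool. Leaving out 1 library gave 96 to 454 and 100 to 382; besides the libraries named above, the upregulated count was 132 without naive OL 1 and 103 without naive OL 2, and the downregulated count was 203 without dpi 42 OL 2. The share of upregulated genes among those called was 67.7%, and 78.4% with library sizes alone, 55.6% with the total RNA reference and 50.3% in the astrocyte-rich stratum. With the offset the respiratory medians turned to -0.209 (complex I), -0.233 (II and III) and -0.01 (IV). The cause of these shifts was not tested. Of the other list medians under all settings, 789 stayed within the spread and 139 moved. These numbers include changes of sign in other lists. Examples are ATP synthase (0.399, and -0.218 with the offset) and gap junction proteins (-0.101, and 0.108 with a replicate block by number). Of the values of the genes chosen by smallest p or largest fold, 600 kept their call, 8 lost it and none reversed. For other list members, some calls lost in the strata or with the offset stand beside their values, and losses under other settings do not. With only the 6 OL libraries fitted, 3 of 22 cell cycle, 3 of 26 interferon-stimulated and 6 of 18 MHC class I genes were upregulated. No metallothionein was called in that fit, while 13 of 14 phagocyte markers stayed upregulated and 15 of 20 sterol enzymes downregulated.

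Replicate numbers do not pair naive and dpi 42 libraries: deviations from the group mean, across genes, correlated between libraries with the same number at -0.262, -0.242 and -0.51. With the replicate number as a replicate block, 1433 genes were upregulated and 660 downregulated, and 193 and 116 passed the enrichment filter. Depth limits values near 0.1049 to 0.1269 CPM (3 counts), and bounds for genes without counts cover counting error only.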
